A study of Mus musculus with 6 samples.

Results

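Kruppel-like factors (Klf) are transcription factors with zinc fingers at the carboxyl end that bind GC-rich boxes and CACCC boxes in promoters. The regions before the zinc fingers differ and recruit different partners, so that some members mainly repress through CtBP or Sin3a and others mainly activate through acetyltransferases such as p300. In kidney and its vessels, Klf2 and Klf4 are known from endothelium, Klf15 from podocytes and tubules, and Klf4 and Klf5 from epithelia. Described here are 10 members, Klf2, Klf3, Klf4, Klf5, Klf6, Klf7, Klf9, Klf10, Klf13 and Klf15, chosen by the gene name printed for each probe in the array files. They are 10 of 27670 genes and 18 of 41174 probes on the array. Klf4 and Klf10 have 1 probe each, and the other 8 genes have 2 each.

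The samples are kidneys taken from CD1 mouse embryos at E13.5 and kept as explants on filters. In each replicate, kidneys given the histone deacetylase (HDAC) inhibitor Scriptaid were set against kidneys given Nullscript, an inactive relative, each at 2.0 µg/ml for 6 h, and the members of a kidney pair went to different drugs. There are 3 biological replicates, each hybridised on 2 two-colour Agilent arrays with exchanged dyes, so that 3 arrays carry Scriptaid RNA in Cy5 and 3 carry it in Cy3. This follows the dye fields of the 6 arrays, whereas the series description mentions 4 arrays with the dyes swapped on 2. Every kidney shares the strain, the age, the culture medium and exposure to a drug, and no untreated kidney is among the samples. How many embryos or litters a replicate holds is not stated in the labels, so p-values measure the spread between these 3 replicates. RNA came from whole rudiments, in which fewer cells of a type and less RNA per cell cannot be told apart.

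Each array carried 43379 spots besides controls, of which 91.5% to 96.5% per channel were well above background. Log2 ratios correlated across probes, which are not independent replicates, at 0.752 to 0.857 between the 2 arrays of a replicate. The values were higher, 0.871 to 0.943, between different replicates with the same dyes, and 0.733 to 0.825 between different replicates with exchanged dyes, so arrays grouped by dye more than by replicate. The kidney genes Pax2, Pax8, Wt1, Six2 and Lhx1 were well above background in both channels of all 6 arrays. All 18 Klf probes were well above background in both channels of all 6 arrays too, and none of their spots carried an outlier mark. The number of arrays limits the precision of each value.

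Values are log2 ratios with the labelled Scriptaid channel on top and the labelled Nullscript channel beneath, so a positive one means a higher level with Scriptaid as labelled. Which drug is which is not settled by the data. Cdkn1a, a kinase inhibitor gene that HDAC inhibitors raise in many cells, had -0.91 ± 0.16 (SD, n = 3), and Ccnd1, a cyclin gene that they lower in many cells, had 1.90 ± 0.19. Both lie opposite to the labels, so each direction given is that of the labelled channel. With the drug names exchanged every sign would turn, while sizes and p-values would stay.

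By the brightest probe of each gene, 6 of the 10 Klf genes passed limma's test at an adjusted p under 0.05. The share among all 26495 genes tested was 46.2%. Klf3, Klf7 and Klf13 were higher with Scriptaid as labelled, where the share of all genes is 22.5%, and Klf2, Klf4 and Klf5 were lower, where it is 23.7%. Klf6, Klf9, Klf10 and Klf15 did not pass. That count lies near the background share, and the family holds members on both sides. With the drug names exchanged, Klf2, Klf4 and Klf5 would be the higher and Klf3, Klf7 and Klf13 the lower ones. The 10 ratios ran from -0.52 (Klf4) to 0.90 (Klf3) with a median of -0.09, against a median of -0.01 over all genes. The median absolute log2 ratio of all genes that passed was 0.351.

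**Figure D1:**
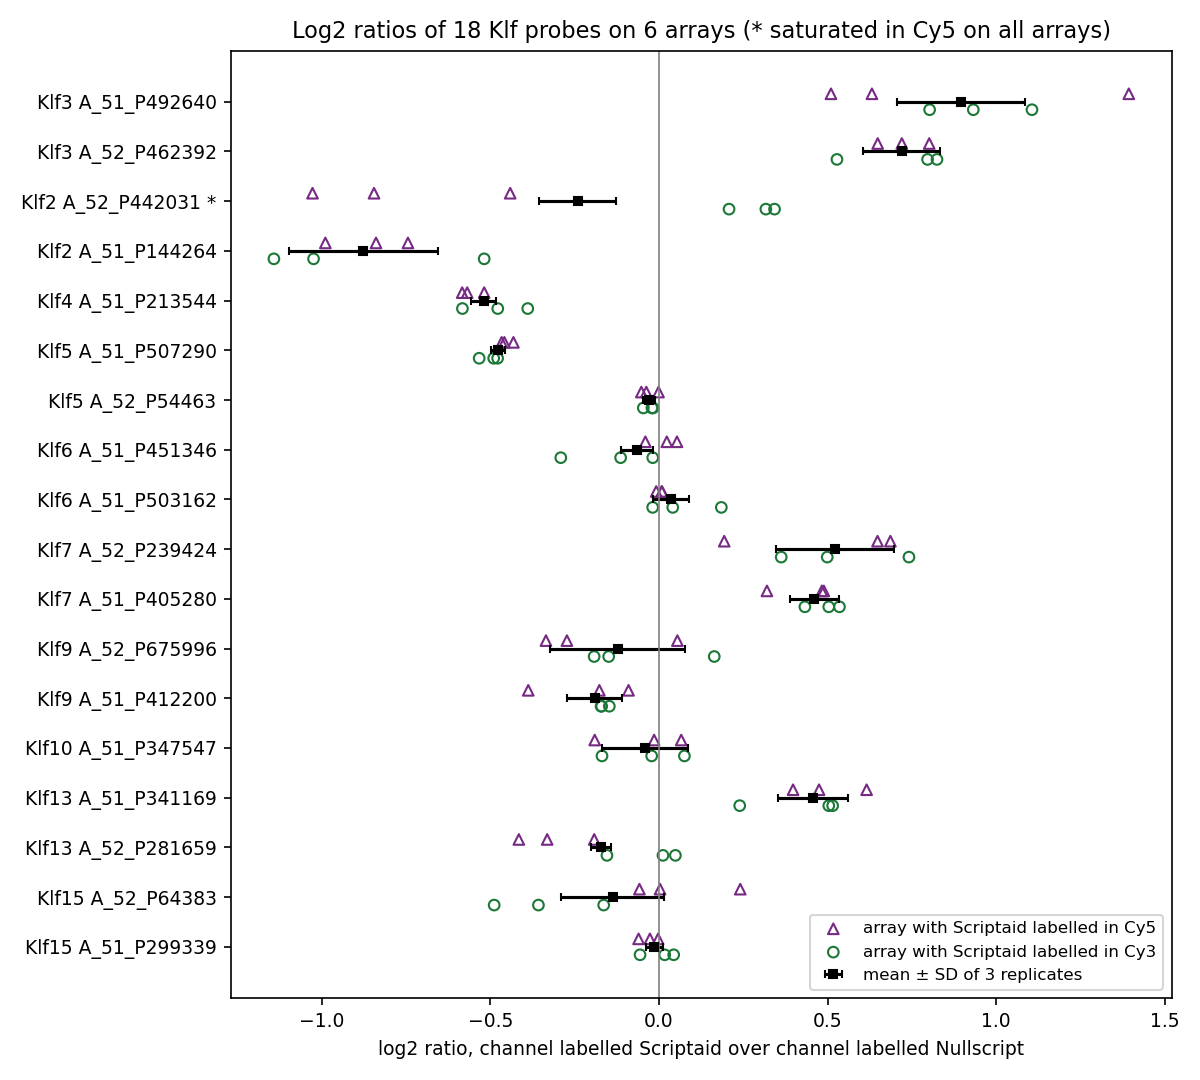
Log2 ratio (x axis) of each of the 18 Klf probes (rows) on each array. Open triangles are arrays with Scriptaid labelled in Cy5, open circles arrays with Scriptaid labelled in Cy3, and black squares with bars the mean ± SD of 3 replicates. Triangles and circles lie on opposite sides of 0 for Klf2 A_52_P442031, the only Klf probe saturated in Cy5 on all arrays, while all 6 symbols of both Klf3 probes lie at 0.51 or higher.

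RefSeq (GRCm38.p6) promoter sequence was at hand for 8 of the 10 genes, and those of Klf5 and Klf10 were not used here. Shown are the 250 bases before the start of the members with the largest ratio on either side by brightest probe, Klf3 and Klf4, and of Klf2, the only one of the 8 with a match to the Mef2-type motif CTANNNNTAG. They are printed 5′ to 3′ on the strand of the gene. Capitals mark each match, on either strand, to CCNCNCCC, the core of the boxes that Klf factors bind, and in Klf2 also the CTANNNNTAG match. In RefSeq the predicted gene Gm38457 overlaps the Klf3 window and Gm12506 the Klf4 window.
Klf3 (chr5:64803271-64803520, plus strand): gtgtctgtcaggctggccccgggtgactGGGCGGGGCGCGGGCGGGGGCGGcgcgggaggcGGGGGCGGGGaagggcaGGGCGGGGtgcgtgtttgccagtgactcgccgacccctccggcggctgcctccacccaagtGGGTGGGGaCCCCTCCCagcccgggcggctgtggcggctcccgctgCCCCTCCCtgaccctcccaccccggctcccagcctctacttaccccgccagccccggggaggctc
Klf4 (chr4:55532476-55532725, minus strand): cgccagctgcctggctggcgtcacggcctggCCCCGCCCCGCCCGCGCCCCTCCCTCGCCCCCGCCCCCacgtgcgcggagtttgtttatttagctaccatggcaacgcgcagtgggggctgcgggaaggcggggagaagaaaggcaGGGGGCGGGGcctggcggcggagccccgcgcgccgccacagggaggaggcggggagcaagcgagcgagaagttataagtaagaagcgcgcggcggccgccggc
Klf2 (chr8:72318812-72319061, plus strand): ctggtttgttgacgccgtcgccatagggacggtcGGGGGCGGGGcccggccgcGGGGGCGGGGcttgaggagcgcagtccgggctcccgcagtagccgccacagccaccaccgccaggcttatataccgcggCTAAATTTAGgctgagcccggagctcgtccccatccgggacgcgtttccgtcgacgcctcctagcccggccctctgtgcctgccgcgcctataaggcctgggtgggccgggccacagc
The Klf3 window held 10 CCNCNCCC matches, the Klf4 window 9 and the Klf2 window 4, counting overlapping ones each. Of the other 5 genes, Klf7 had 8, Klf13 5, Klf15 3, Klf6 2 and Klf9 none. Among 32851 promoters in the table, 45.9% of windows of this length held at least 1 match. The GC box GGGCGG, which overlaps CCNCNCCC where the letters run on, occurred 6 times in Klf3, of which 5 shared bases with a CCNCNCCC match, 4 times in Klf4 and 2 times in Klf2, and was in 32.7% of all windows. CTANNNNTAG occurred once in Klf2, from 118 to 109 bases before the start, and in 3.2% of all windows. The Klf3, Klf4 and Klf2 windows were 78.4%, 74.0% and 71.2% G and C, and those of the other 5 genes 59.2% to 72.0%. The median over all windows was 52.4%. Whether the matches exceed what this base content gives was not tested. The matches are letters only. Windows rich in them belong to genes on both sides of the comparison, with Klf3 higher and Klf4 lower in the channel labelled Scriptaid.

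Klf3 (basic Kruppel-like factor), a repressor that recruits CtBP to CACCC boxes, had the highest ratio among the 10. By its brightest probe, A_51_P492640, log2 intensities in replicates 1, 2 and 3 were 10.51, 10.56 and 10.27 in the channel labelled Scriptaid, against 9.79, 9.46 and 9.40 in the channel labelled Nullscript. The 2 channels did not overlap. Arrays with Scriptaid in Cy5 gave ratios of 0.51, 1.39 and 0.63, and arrays with Scriptaid in Cy3 gave 0.93, 0.80 and 1.11. The mean was 0.90 ± 0.19 (SD, n = 3), a 1.86-fold difference (adjusted p = 0.000702). The other probe, A_52_P462392, had 9.80, 9.50 and 9.55 in the channel labelled Scriptaid and 9.01, 8.91 and 8.78 in the channel labelled Nullscript. Its ratio was 0.72 ± 0.11 (adjusted p over probes = 0.000555, where 45.2% of 39393 probes passed, 23.5% higher and 21.8% lower). The difference of 0.18 between the Klf3 probes had an interval from -0.12 to 0.47 and did not pass.

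Klf8 and Klf12, the other Klf repressors that bind CtBP, lay on different sides. Klf8 was lower at -0.55 ± 0.12 (adjusted p = 0.00101) by its brightest probe, while its other probe gave 0.01. Klf12 was higher at 0.50 ± 0.15 (adjusted p = 0.0024), with further probes between 0.01 and 0.43. The corepressor genes themselves both lay higher in the channel labelled Scriptaid, Ctbp1 at 1.05 ± 0.14 and Ctbp2 at 0.78 ± 0.18. Lgals3, a gene that Klf3 represses in mouse cells, was lower at -0.22 ± 0.08 (adjusted p = 0.0078). Reported targets of other members did not all lie with their factor. Ccl5, which Klf13 activates in T cells, had 0.05 ± 0.03 (adjusted p = 0.26), while Klf13 was higher by its brightest probe and lower by its other. Lgals3 and Ccl5 are both outside the naming rule and were named after their values were seen.

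Klf2 (lung Kruppel-like factor), which flow induces in endothelium, gave unlike values by its probes. The probe A_51_P144264 had log2 intensities of 11.19, 11.36 and 11.20 in the channel labelled Scriptaid, against 12.26, 11.99 and 12.13 in the channel labelled Nullscript. No channel was saturated, and the drugs did not overlap. Its ratios were -0.99, -0.74 and -0.84 with Scriptaid in Cy5 and -1.14, -0.52 and -1.02 with Scriptaid in Cy3. The mean was -0.88 ± 0.22 (adjusted p over probes = 0.00138), a 1.84-fold lower level.

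The brightest Klf2 probe, A_52_P442031, was saturated in the Cy5 channel on all 6 arrays, whichever drug that channel held. With Scriptaid in Cy5 its ratios were -1.03, -0.44 and -0.85, and with Scriptaid in Cy3 they were 0.34, 0.21 and 0.32. Its sign therefore followed the dye. The mean over both orientations was -0.24 ± 0.11 (adjusted p = 0.0144), and this is the value that counts Klf2 among the 6 genes called. The ratio differed by -1.06 between the arrays with Scriptaid in Cy5 and those with it in Cy3 (adjusted p over genes = 0.00392). It was the only 1 of the 10 genes with such a difference, against 5.43% of all genes, and its probe the only 1 of the 18, against 3.61% of all probes. The count of genes was 7 with median centring, 2 without replicate 2 and 0 without replicate 3. The call was lost at a like ratio with the slide as a block (-0.25, adjusted p = 0.0510) and without replicate 3 (-0.23, adjusted p = 0.0961), and at a smaller one with median centring (-0.11, adjusted p = 0.0537). With saturated spots left out, Klf2 was represented by A_51_P144264 alone.

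Klf4, an epithelial and endothelial factor also known from reprogramming to pluripotency, had the most negative ratio among the 10 by brightest probe, though the unsaturated Klf2 probe was lower at -0.88. Its single probe, A_51_P213544, had log2 intensities of 11.52, 11.37 and 11.35 in the channel labelled Scriptaid, against 12.00, 11.90 and 11.90 in the channel labelled Nullscript. The drugs did not overlap, and the replicates differed little. Ratios were -0.57, -0.58 and -0.52 with Scriptaid in Cy5 and -0.39, -0.48 and -0.58 with Scriptaid in Cy3. The mean of -0.52 ± 0.04 is a 1.43-fold lower level (adjusted p = 0.000271).

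Genes around Klf2 and Klf4 were counted as lists. All lists described here were chosen with earlier results of these data known. Their counts, given beside the share of all genes, therefore do not test a list. In the route from the kinase Erk5 to Mef2 factors, which induces Klf2 and Klf4 in endothelium, 4 of 6 genes were higher with Scriptaid as labelled, against 22.5% of all genes, and the other 2 did not pass. The median was 0.26. These were Map2k5, the kinase that activates Erk5, at 0.46 ± 0.05, the transcription factor genes Mef2c at 0.42 ± 0.17 and Mef2a at 0.35 ± 0.17, and the upstream kinase gene Map3k3 at 0.17 ± 0.09. A further Mef2c probe gave -0.16. Mapk7, which encodes Erk5 itself, had 0.06 ± 0.06 (adjusted p = 0.251) and Mef2d 0.01 ± 0.06 (adjusted p = 0.837), both outside the naming rule and named after their values were seen.

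Of 10 reported target genes of Klf2 and Klf4, 5 were higher, 1 was lower and 4 did not pass, with a median of 0.15. Together 6 passed, near the 46.2% of all genes. Cdh5, the endothelial cadherin, had 0.95 ± 0.20, and Vcam1, an adhesion molecule that Klf2 represses in endothelium, had 0.54 ± 0.15, with 0.05 and 0.17 by its further probes. S1pr1, a sphingosine receptor that Klf2 induces in lymphocytes, had 0.42 ± 0.21. Itgb7, an integrin chain of lymphocytes, was the lower one at -0.53 ± 0.07.

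Markers of endothelium moved the other way from Klf2. Of 11 markers 10 lay higher in the channel labelled Scriptaid, with a median of 0.95, and all 11 were well above background. The largest were Ramp2 at 1.80 ± 0.19, Sox7 at 1.78 ± 0.40, Icam2 at 1.47 ± 0.29 and Esam at 1.07 ± 0.21. The summed intensity of the 11 probes was 39293 to 39426 over the replicates in the channel labelled Scriptaid and 17708 to 21897 in the channel labelled Nullscript. Sox7 had 0.40 by its other probe, Pecam1 0.00 and Kdr 0.03, and the further Sox17 probes gave -0.06 to 0.26. Cdh5 had 0.80 and Tek 0.48 by the other probe. Cdh5 is in this list and in that of the Klf2 and Klf4 targets, so the lists are not separate. Markers of nephron progenitors and stroma lay mostly on the same side, with 7 of 7 nephron progenitor markers higher (median 0.71). Of 7 stroma markers 6 were higher and 1 was lower (median 0.56), where the share of all genes is 22.5% higher and 23.7% lower. Ureteric bud markers were mixed, with 4 of 9 higher and 2 lower (median 0.11). Macrophage markers were mixed too, with 3 of 7 higher and 2 lower (median 0.06). No red blood cell marker was higher, and 3 of 7 were lower. Summed intensities were 33332 to 39301 in the channel labelled Scriptaid and 15910 to 16738 in the channel labelled Nullscript for nephron progenitors. For stroma they were 115885 to 124877 in the channel labelled Scriptaid and 96637 to 110337 in the channel labelled Nullscript, where the Col1a1 probe was saturated on 3 arrays for each drug. The part of these cells in the Klf2 and Klf4 values was not tested.

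**Figure D2:**
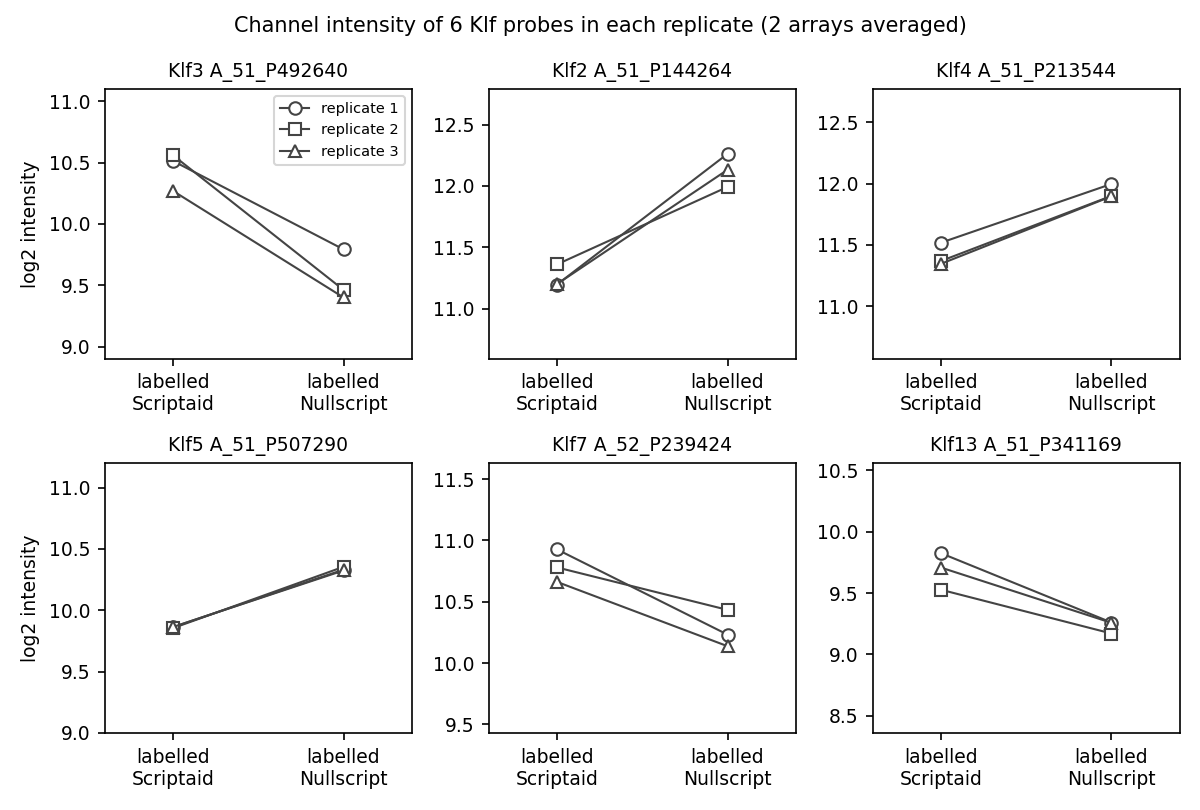
Log2 intensity (y axis) in the channel labelled Scriptaid (left) and the channel labelled Nullscript (right) for 6 Klf probes, with a line for each of 3 replicates (2 arrays averaged). The y range is equally wide in each panel, and levels of different probes are not comparable. Lines fall to the right for Klf3, Klf7 and Klf13 and climb for Klf2 A_51_P144264, Klf4 and Klf5. Each panel shows a probe that passed, picked from a gene that was called, so a lack of overlap between the drugs is no result of its own. The share of all genes without overlap was not counted. The other Klf13 probe, A_52_P281659, is not drawn, and its channels overlapped across replicates with a ratio of -0.17.

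Klf5, a factor of dividing epithelial cells, was lower in the channel labelled Scriptaid by its brightest probe, A_51_P507290. Log2 intensities were 9.86, 9.85 and 9.86 in the channel labelled Scriptaid, against 10.33, 10.35 and 10.32 in the channel labelled Nullscript. The 6 arrays lay between -0.53 and -0.43, the narrowest range among the genes called. The mean was -0.48 ± 0.02 (adjusted p = 0.000279), a 1.39-fold lower level. The other probe, A_52_P54463, was dim, brighter than only 18.9% of probes, and gave -0.03 ± 0.02 (adjusted p over probes = 0.472). The probes differed by -0.45 (interval -0.56 to -0.34, adjusted p = 0.0016), so the Klf5 result rests on 1 probe.

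Klf6 and Klf7 are close relatives that act mostly as activators, Klf6 in many tissues and Klf7 best known from neurons. Klf7 was higher by both probes. A_52_P239424 had log2 intensities of 10.93, 10.78 and 10.66 in the channel labelled Scriptaid, against 10.23, 10.43 and 10.14 in the channel labelled Nullscript, with no overlap. The ratios were 0.65, 0.19 and 0.69 with Scriptaid in Cy5 and 0.74, 0.50 and 0.36 with Scriptaid in Cy3. Replicate 2 had the lowest value of the replicates, 0.35. The mean was 0.52 ± 0.17 (adjusted p = 0.00316), and A_51_P405280 gave 0.46 ± 0.07 (adjusted p over probes = 0.000875).

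Klf6 did not pass by either probe. A_51_P451346 had 12.01, 12.15 and 12.17 in the channel labelled Scriptaid, against 12.06, 12.18 and 12.29 in the channel labelled Nullscript. The drugs overlapped across replicates, though the ratio within each replicate was slightly below 0, at -0.05, -0.03 and -0.12. The mean ratio was -0.06 ± 0.05 (adjusted p = 0.176), with an interval of -0.15 to 0.02, and the other probe gave 0.04 ± 0.05. The interval leaves out a difference of the size seen for Klf7. Among the activator relatives, Klf1, which drives globin genes in red cells, was lower at -0.13 ± 0.06 (adjusted p = 0.0322). Of 7 red blood cell markers 3 were lower and 4 did not pass, and their summed intensity was 79943 to 95063 in the channel labelled Scriptaid and 99961 to 114270 in the channel labelled Nullscript. That sum includes the Hba-a1 probe, saturated on 3 arrays for each drug. The part of these cells in the Klf1 value was not tested.

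Klf9, Klf10 and Klf13 belong to the branch whose repressor domain binds Sin3a. Klf13, which activates Ccl5 in T cells, was higher by its brightest probe, A_51_P341169. Log2 intensities were 9.83, 9.53 and 9.71 in the channel labelled Scriptaid, against 9.26, 9.17 and 9.26 in the channel labelled Nullscript, with no overlap. Ratios on single arrays ran from 0.24 to 0.62, and the mean was 0.46 ± 0.10 (adjusted p = 0.0013), a 1.37-fold higher level. The other Klf13 probe, A_52_P281659, went the other way.

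A_52_P281659 had 9.02, 9.58 and 9.11 in the channel labelled Scriptaid and 9.17, 9.75 and 9.31 in the channel labelled Nullscript. The drugs overlapped across replicates, but the channel labelled Scriptaid was lower within each. With Scriptaid in Cy5 its ratios were -0.33, -0.19 and -0.42, and with Scriptaid in Cy3 they were 0.05, -0.15 and 0.01. The mean was -0.17 ± 0.03 (adjusted p over probes = 0.00858). The difference of 0.63 between the Klf13 probes (interval 0.50 to 0.76) passed with an adjusted p of 0.0011, and Klf13 therefore has no single direction here. A_52_P281659 was matched to Klf13 by its symbol, since its accession is not in the RefSeq table, whereas A_51_P341169 was matched by accession. The same holds for the dim Klf5 probe, A_52_P54463, and for the brightest Klf7 probe, A_52_P239424, both matched by symbol only.

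Klf9, which glucocorticoids and thyroid hormone induce, did not pass by its brightest probe, A_52_P675996. Log2 intensities were 9.39, 9.74 and 9.64 in the channel labelled Scriptaid, against 9.62, 9.63 and 9.88 in the channel labelled Nullscript. Replicate 2 lay on the other side from replicates 1 and 3, with 0.11 against -0.23 and -0.24. The mean was -0.12 ± 0.20 (adjusted p = 0.283, interval -0.33 to 0.09), and without replicate 2 it was -0.24 and passed (adjusted p = 0.00933). The other probe, A_51_P412200, was below 0 on all 6 arrays and gave -0.19 ± 0.08 (adjusted p over probes = 0.0176). The probes did not differ detectably, with an interval of -0.20 to 0.34.

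Klf10, an early gene of TGF-beta signalling, had 1 probe, A_51_P347547. Its log2 intensities were 11.76, 11.85 and 11.79 in the channel labelled Scriptaid, against 11.94, 11.87 and 11.72 in the channel labelled Nullscript. Replicates 1, 2 and 3 gave -0.18, -0.02 and 0.07, and so lay on both sides of 0. The mean was -0.04 ± 0.13 (adjusted p = 0.588), with an interval of -0.19 to 0.10. The branch relatives Klf11 (0.23 ± 0.16, adjusted p = 0.0362) and Klf14 (0.43 ± 0.11, adjusted p = 0.00187) were higher, and Klf16 (-0.48 ± 0.02, adjusted p = 0.00027) was lower. A further Klf11 probe gave -0.01.

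Of 7 measured glucocorticoid-induced genes, the list taken beside Klf9 and Klf15, 5 were lower and 2 were higher, against 23.7% and 22.5% of all genes. The median was -0.40. Errfi1, a brake on EGF receptor signalling, had -1.04 ± 0.20, Fkbp5, a chaperone of the glucocorticoid receptor, -0.60 ± 0.19, and Ddit4, an inhibitor of mTOR signalling, -0.58 ± 0.42. Tsc22d3, which encodes the leucine zipper protein GILZ, was on the other side at 0.45 ± 0.08. With all 3 replicates, Klf9 passed, as lower, by A_51_P412200 and not by its brightest probe, A_52_P675996.

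Of 9 TGF-beta-induced genes, the list taken beside Klf10, 4 were higher, 1 was lower and 4 did not pass, with a median of 0.05, near the 46.2% of all genes that passed. Ccn2, a matricellular protein gene, had 0.79 ± 0.06, the inhibitory Smad7 0.51 ± 0.05 and the HLH gene Id3 0.39 ± 0.13. Id1, a relative of Id3, had -0.47 ± 0.09.

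Klf15, a regulator of amino acid and glucose metabolism that podocytes and heart also use, did not pass. A_52_P64383 had log2 intensities of 9.98, 9.67 and 9.49 in the channel labelled Scriptaid, against 9.95, 9.87 and 9.74 in the channel labelled Nullscript. Ratios were 0.24, -0.06 and 0.00 with Scriptaid in Cy5 and -0.16, -0.36 and -0.49 with Scriptaid in Cy3. The dye orientations did not overlap, though their difference of 0.40, Cy5 minus Cy3, did not pass (adjusted p = 0.0599). The mean was -0.14 ± 0.15 (adjusted p = 0.145, interval -0.30 to 0.03), and without replicate 1 it was -0.23 and passed (adjusted p = 0.00903). The other probe, A_51_P299339, gave -0.01 ± 0.02 (adjusted p over probes = 0.741). Of 6 podocyte markers 3 were higher and 3 did not pass, with a summed intensity of 25729 to 31777 in the channel labelled Scriptaid and 19473 to 24009 in the channel labelled Nullscript. Their part in the Klf15 value was not tested.

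**Figure D3:**
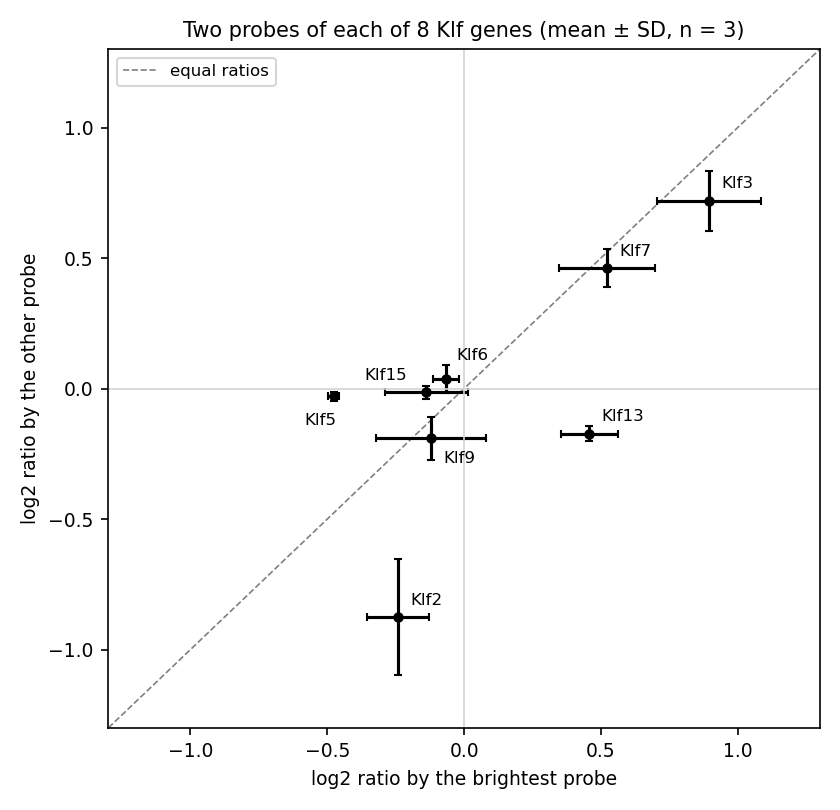
Log2 ratio by the brightest probe (x axis) and by the other probe (y axis) for the 8 Klf genes with 2 probes, as mean ± SD of 3 replicates. The dashed line marks equal ratios. Klf3 and Klf7 lie near it at high values, while Klf2, Klf5 and Klf13 lie off it.

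Among the 8 genes with 2 probes, the probes of Klf2, Klf5 and Klf13 differed, against 34% of the 8611 genes with at least 2 tested probes. This test was chosen after probes were seen to differ. Klf3 and Klf7 thus are the genes called by both probes in 1 direction without a saturated spot, while Klf2 rests on its unsaturated probe. The Klf4 call has no second probe behind it. Across the 17 further probes and processing settings run for each, Klf3 lay between 0.72 and 0.98 and Klf7 between 0.44 and 0.61, and both passed in each. Klf4 lay between -0.56 and -0.43 in 16 settings and passed in each.

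Of the 7 further Klf genes measured, 3 were higher (Klf11, Klf12 and Klf14), 3 were lower (Klf1, Klf8 and Klf16), and Klf17 at -0.05 ± 0.08 did not pass. Of 8 measured Sp factors, which share the zinc fingers and the GC boxes, 4 were higher, 2 were lower and 2 did not pass. Among all genes tested, 22.5% were higher and 23.7% lower. Sp5, a target of Wnt signalling, had 0.78 ± 0.04, Sp3 0.54 ± 0.08 and Sp1, the broadly expressed activator, 0.50 ± 0.07. Further Sp3 probes gave 0.05 and 0.54. By the brightest Sp3 probe, ratios were 0.96, 0.66 and 0.87 with Scriptaid in Cy5 and 0.31, 0.32 and 0.12 with Scriptaid in Cy3. Sp2 had 0.13 ± 0.02. Sp6 was lower at -0.43 ± 0.02, with -0.01 by a further probe, and Sp8 was lower at -0.13 ± 0.02. Sp4 varied widely between replicates (0.20 ± 0.83), and Sp7 had 0.00 ± 0.06. Members of either branch were thus found on both sides, as were genes at large.

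**Figure D4:**
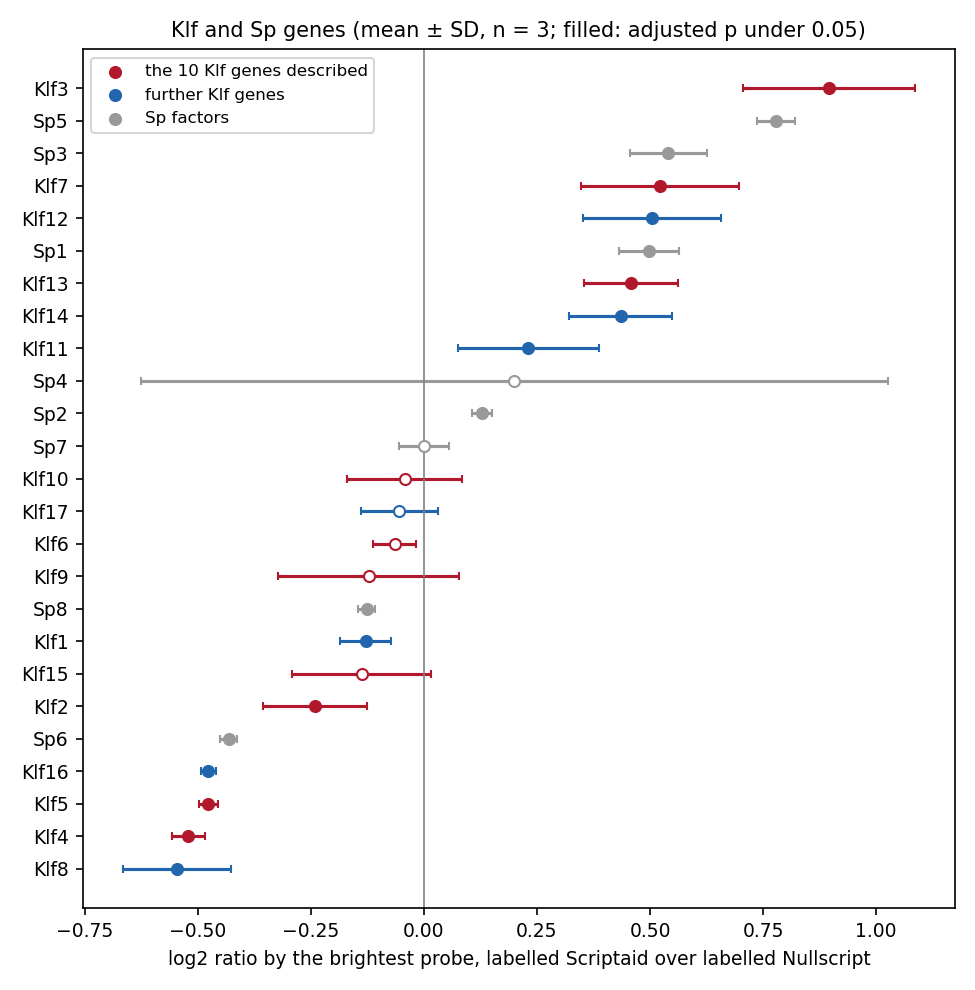
Log2 ratio by the brightest probe (x axis, mean ± SD, n = 3) of the 10 Klf genes described (red), 7 further Klf genes (blue) and 8 Sp factors (grey), ordered by ratio. Filled points passed at an adjusted p under 0.05 and open points did not. Klf3 is at the top at 0.90 and Klf8 at the bottom at -0.55, with Klf genes spread over the whole range. Klf2 is drawn by its saturated probe at -0.24, and its unsaturated probe, at -0.88, would place it below Klf8.

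Of 15 genes of proteins that bind or modify Klf factors, 6 were higher, 4 were lower and 5 did not pass, with a median of 0.09, against 22.5% higher and 23.7% lower among all genes. Besides Ctbp1 and Ctbp2, Crebbp, an acetyltransferase that activating Klf factors recruit, had 1.01 ± 0.11, with 0.05 and 0.20 by further probes. Hdac1, a deacetylase of the Sin3a complex, was lower at -0.83 ± 0.07. Hdac2 was on the other side at 0.37 ± 0.20 (adjusted p = 0.0149), with 0.06 by its other probe, and Sin3a and Sin3b did not pass. Hdac2, Sin3a and Sin3b are outside the naming rule and were named after their values were seen.

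Of 16 reported targets of Klf factors other than Klf2, 8 were higher, 4 were lower and 4 did not pass, with a median of 0.18, against 22.5% higher and 23.7% lower among all genes. Besides Ccnd1 and Cdkn1a, the largest were Ccnb1, a cyclin gene of mitosis that Klf5 activates, at 0.59 ± 0.12, and Smad7. Ccnd1 and Ccnb1, both reported as Klf5 targets, thus lay higher while Klf5 itself was lower by its brightest probe.

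**Figure D5:**
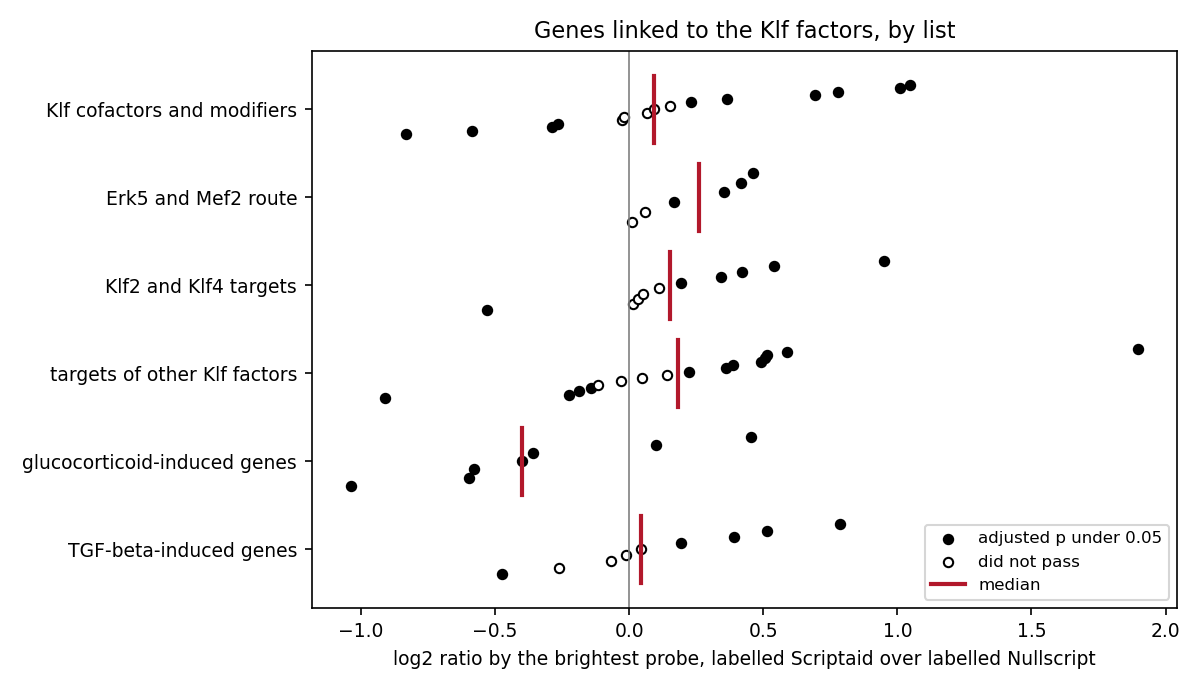
Log2 ratio by the brightest probe (x axis) of the genes of 6 lists linked to Klf factors (rows), each point a gene (mean of 3 replicates), filled where the adjusted p was under 0.05. The red bar is the median of the list, which is lowest for the glucocorticoid-induced genes at -0.40 and highest for the Erk5 and Mef2 route at 0.26.

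The genes whose 3 replicate ratios lay closest to those of Klf3 by Euclidean distance were Smarce1, a subunit gene of the SWI/SNF complex, at a distance of 0.133 with a ratio of 0.83 ± 0.18, Gar1 (0.170, 0.82 ± 0.16) and Tpm4 (0.197, 0.92 ± 0.08). Those closest to Klf4, the lowest member by brightest probe, were Trp53i13 at 0.0211 with -0.52 ± 0.05, Rrm2b, a p53-induced ribonucleotide reductase subunit gene, at 0.0216 with -0.53 ± 0.04, and Pgrmc2 at 0.0266 with -0.53 ± 0.04. The likeness is over 3 replicates only.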

How the data were processed

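Gene expression was measured on 6 two-colour arrays, with RNA of Scriptaid-treated and Nullscript-treated kidneys in the channels. The deposited scanner files hold spot and local background intensity of each channel, written by Agilent Feature Extraction (version 9.1.3.1, per the file headers). The authors' series value table holds log10 ratios, which equal log10 of Scriptaid over Nullscript as the dye fields give them (largest difference 4.82e-06, column medians -0.00959 to -0.00136), with no centring.

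From the intensities, limma 3.58.1 (R 4.3.3) applied normexp (offset 50) and loess within arrays, with control spots at weight 0. Outlier-marked spots were dropped and saturated ones retained, and repeated spots of a probe were averaged. The arrays of a replicate were averaged after turning signs. Tested were the 39393 probes that either drug showed well above background on 3 or more of its 6 arrays, and the brightest one stands for its gene. Means of 3 replicates were tested against 0 with lmFit and eBayes and Benjamini-Hochberg adjustment. Intervals are 95% confidence intervals of that fit. Channel levels are after loess and Aquantile. The dye term was fitted on 6 arrays with the replicate as a block (consensus correlation 0.0975). The labels state that same-numbered arrays are 1 biological replicate, which pairs them. Their deviations from the orientation means correlated at 0.615, 0.131 and 0.0125 in replicates 1, 2 and 3, and at -0.417 to 0.259 between different replicates. Replicates 1 and 2 shared slide 1 and replicate 3 was on slide 2.

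Of 41174 probes, 22951 were named through an accession in the RefSeq table, 6659 through a current and 3109 by a former symbol. The remaining 8455 carry the name in the file. The members and lists were chosen with earlier results of these data known. Named were all members and probes, further Klf and Sp genes, up to 4 called genes per list with the largest absolute ratio, and the 3 nearest genes of the top and bottom member. The fit was also run on simulated data in which few features changed and the arrays of a replicate varied independently. Those settings differ from these data, where 46.2% of genes passed, so the run does not test the calls. Alternatives changed background correction, normalization, filters, probe choice, saturated and outlier-marked spots, dye orientation, slide and replicates. The figures were drawn with matplotlib.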

Additional observations from a re-analysis of the deposited data

Results flagged for a closer look

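Klf2 differed between the dye orientations by its brightest probe, A_52_P442031. The arrays with Scriptaid in Cy5 averaged -0.77 and those with Scriptaid in Cy3 averaged 0.29, a difference of -1.06 (adjusted p over probes = 0.00579, where 3.61% of probes passed). All 3 arrays of one orientation were below 0 and all 3 of the other above it. The Cy5 channel of this probe was saturated on all 6 arrays and its Cy3 channel on none. With saturated spots left out, this probe had no value. The unsaturated Klf2 probe, A_51_P144264, differed between the orientations by 0.04 (adjusted p over probes = 0.905).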

How the results depend on the processing

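The number of Klf genes called was 6 and lay between 5 and 7 in the 16 alternatives run, and that of all genes was 12253 and lay between 8323 and 14309 except with each probe on its own, where 17820 probes passed. With the replicate block, 12845 genes and 6 Klf genes passed, and no Klf call changed. Leaving out 1 replicate gave 8323 to 11150 genes and 5 to 7 Klf genes. The count of 1 Klf gene with a dye difference became 7 with median centring, 0 with saturated spots left out, where the brightest Klf2 probe drops out, and 0 to 2 without 1 replicate (0 without replicate 3, and Klf2 and Klf3 without replicate 2). Signs turned for Klf10 with median centring (0.053), and leaving out 1 replicate gave Klf10 ratios of -0.099 to 0.026. Klf6 turned with median centring (0.032), by its other probe (0.036) and on the arrays with Scriptaid in Cy5 (0.012). Klf13 turned by its other probe (-0.17), Klf15 on the arrays with Scriptaid in Cy5 (0.062) and Klf2 on those with Scriptaid in Cy3 (0.29). Klf2 also missed the threshold with median centring (-0.11, adjusted p = 0.0537). Klf9 passed by its other probe, A_51_P412200 (-0.19), and by the mean of its probes (-0.16). It also passed with the Agilent processed signals and the series value table (-0.21 in both). These hold the same ratios, and A_51_P412200 was the brightest Klf9 probe there, so they are not separate evidence. Klf15 passed on the arrays with Scriptaid in Cy3 (-0.34). The cause of these changes was not tested, apart from settings that swap the probe. Fits without 1 replicate rest on 2 values. The number of arrays and, for Klf2, saturation limit the precision.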
